A study of Mus musculus with 6 samples.

Results

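The pentose phosphate pathway genes described here are G6pdx, Pgls, Pgd, Rpia, Rpe, Tkt and Taldo1, chosen by gene name. All 7 names were found once each among the 54532 genes of the count table, and all 7 passed the filter on low counts that left 13472 genes. RNA was sequenced in 6 libraries labelled as mouse Glu-tag cells, an enteroendocrine line known for making proglucagon. The labels also call it a line of small intestinal neuroendocrine tumours (SI-NETs). The libraries labelled shIRS2 (n = 3, genotype label IRS2 Knockdown) came from cells stably carrying a hairpin directed at Irs2, an adaptor protein of the insulin receptor. The shControl libraries (n = 3, genotype label WT) came from cells with a control hairpin. Each group is numbered 1 to 3 in the sample titles, and neither the hairpin sequence nor the number of clones is given in the sources used here.

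The labels were set against marker and target genes before any comparison. Gcg, which encodes proglucagon, and the enteroendocrine genes Chga, Pcsk1, Pyy and Neurod1 had 0 counts in all 6 libraries, which allows a level of up to 0.0295 CPM. CPM is counts per 1000000 counts of a library after TMM scaling. Only 4 of 20 enteroendocrine markers averaged at least 1 CPM, with Cpe, a prohormone-processing carboxypeptidase, the highest at 215 CPM. Of 10 fibroblast or stromal markers 6 averaged at least 1 CPM, and the summed level of that list was 936 to 1034 CPM in the libraries labelled shIRS2 and 692 to 1015 CPM in the shControl libraries. In that list Col3a1 alone averaged 735 CPM, and Thy1 and Postn had 0 counts. At least 1 CPM was also reached by 2 of 8 epithelial markers (Krt8 highest at 396 CPM) and 3 of 7 neuronal or glial markers (Nes highest at 219 CPM). The same held for 2 of 7 immune markers (Lyz2 highest at 2.37 CPM) and 0 of 5 endothelial markers. With 0 counts for Gcg and 4 of 20 enteroendocrine markers at 1 CPM or more, the markers do not bear out the line's name. It is used as the labels give it. The part of these marker levels in the results below was not tested. In bulk RNA, fewer cells of a type and less RNA per cell cannot be told apart. Irs2, the target, stood at 31.4, 29.1 and 38.6 CPM in libraries 1 to 3 labelled shIRS2, against 31.0, 23.0 and 34.1 CPM in the shControl libraries (log2 fold change 0.17, SE 0.16, edgeR adjusted p 1.00). Its mean was thus higher, not lower, under the hairpin label, so the groups are named by their labels, and each direction is that of the libraries labelled shIRS2. Library totals ran from 14991019 to 19790073 counts.

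The pentose phosphate pathway takes glucose 6-phosphate away from glycolysis. Its oxidative branch makes NADPH, the reductant of lipid synthesis and of the glutathione and thioredoxin systems, and ends in ribulose 5-phosphate. Its non-oxidative branch makes ribose 5-phosphate for nucleotides and, by reversible exchange of carbon units, returns surplus pentose to glycolysis. Proliferating cells use both branches, and insulin and the transcription factor NRF2 are known to raise several of the enzymes.

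All 7 genes were expressed in every library, and 4 of them were present at similar levels per length. FPKM, from the authors, is fragments per kilobase of gene length and 1000000 of a library total. The total it implies was 0.985 to 1.02 times the count total of the library. In FPKM, Taldo1 was at 43.2 to 76.3, G6pdx at 44.3 to 52.5, Tkt at 42.6 to 50.2 and Pgd at 39.7 to 51.5 over the 6 libraries. These 4 ranges overlapped. Rpe was at 18.1 to 18.9 FPKM and Pgls at 10.2 to 19.5 FPKM, again overlapping. Rpia was lowest at 4.54 to 6.23 FPKM, below every other member in every library.

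This order depends on the length used. The listed gene lengths equal the merged length of all annotated exons and exceed the principal transcript in GENCODE M21 by 1.16-fold for G6pdx and 1.16-fold for Rpe, against 4.22-fold for Pgls, where 3770 bases stand for a transcript of 893 bases. Per kilobase of the principal transcript, Pgd was highest at 116 to 151 CPM per kilobase, above Tkt at 97.4 to 115 CPM per kilobase. Taldo1 at 76.6 to 135 CPM per kilobase overlapped both. Pgls was then at 43.4 to 82.5 CPM per kilobase, a range that contained that of G6pdx at 51.5 to 61.3 CPM per kilobase. Rpia at 13.4 to 18.3 CPM per kilobase stayed lowest. Rpe at 21.1 to 21.9 CPM per kilobase was next, and these ranges did not overlap. The plot of level per length shows both scales.

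**Figure D1:**
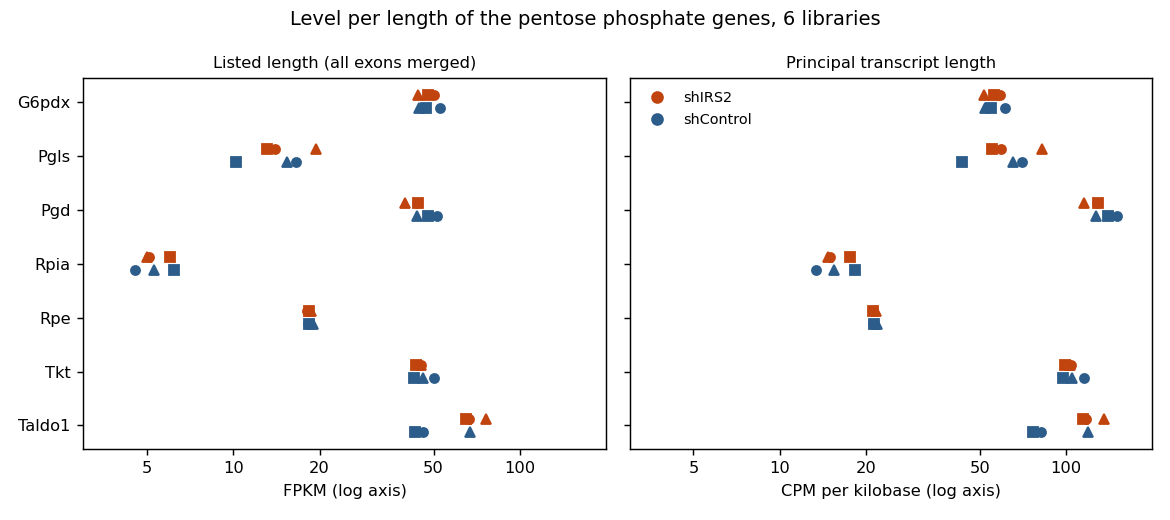
Level per length of each gene in the 6 libraries, in FPKM on the listed length (left) and in CPM per kilobase of the principal transcript (right), on log axes. Circles, squares and triangles are replicate numbers 1, 2 and 3, red is shIRS2 and blue is shControl. Pgls moved from 10.2 to 19.5 FPKM on the left to 43.4 to 82.5 CPM per kilobase on the right, while Rpia was lowest on both scales.

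The genes lie on 7 chromosomes, in the files' build mm10. G6pdx is on the X chromosome from 74409483 to 74429194, Pgls on chromosome 8 from 71592176 to 71601092 and Pgd on chromosome 4 from 149149991 to 149166771. Rpia is on chromosome 6 from 70765720 to 70792232, Rpe on chromosome 1 from 66700831 to 66719805, Tkt on chromosome 14 from 30548359 to 30574720 and Taldo1 on chromosome 7 from 141392199 to 141402968. Pgls, Rpe, Tkt and Taldo1 are on the plus strand. The listed span of Pgls overlaps Fam129c on the same strand, with 262 counts against 5605 for Pgls over all libraries. G6pdx overlaps Ikbkg (6286 against 14957 counts) and Rpe overlaps Kansl1l (1857 against 5846 counts), both on opposite strands. The labels describe strand-specific libraries, and the strand setting of the counting is not given in the sources used here, so reads of these pairs cannot be told apart with certainty.

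The starts of Taldo1, Pgls and Rpe are shown because Pgls and Taldo1 varied most among the members and Rpe least. Each run is the 250 bases before the RefSeq start in GRCm38.p6, in the gene's direction, with GC boxes (GGGCGG on either strand) in capitals. They are chr7:141391910-141392159 (+), chr8:71591934-71592183 (+) and chr1:66700581-66700830 (+).
Taldo1: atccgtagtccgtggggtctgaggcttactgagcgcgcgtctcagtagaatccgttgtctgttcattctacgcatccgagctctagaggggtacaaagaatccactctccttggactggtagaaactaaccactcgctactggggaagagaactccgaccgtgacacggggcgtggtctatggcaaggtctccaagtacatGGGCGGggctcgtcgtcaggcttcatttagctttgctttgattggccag
Pgls: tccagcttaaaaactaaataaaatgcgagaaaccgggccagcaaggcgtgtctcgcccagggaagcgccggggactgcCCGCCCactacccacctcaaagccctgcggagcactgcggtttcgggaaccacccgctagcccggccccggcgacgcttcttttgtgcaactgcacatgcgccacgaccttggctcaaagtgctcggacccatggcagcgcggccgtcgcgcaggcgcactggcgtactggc
Rpe: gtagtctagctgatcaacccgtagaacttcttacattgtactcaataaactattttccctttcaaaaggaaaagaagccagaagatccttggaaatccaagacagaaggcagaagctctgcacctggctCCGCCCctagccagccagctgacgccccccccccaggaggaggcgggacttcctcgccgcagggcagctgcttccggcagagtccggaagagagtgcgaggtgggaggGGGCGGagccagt
A GC box was found in 7 of the 8 RefSeq start windows of the members (Pgd has 2 starts), against 32.7% of 32851 windows of that length. Those windows were taken whatever the expression or GC content, so the members were not set against like genes. The antioxidant response element, the motif of NRF2, was searched as TGACNNNGC on both strands. It was found in 1 of the 8 windows, that of G6pdx, against 10.2% of all windows. The stretch of 29 bases around it, with the match in capitals on the opposite strand, is chrX:74428919-74428947 (-).
G6pdx: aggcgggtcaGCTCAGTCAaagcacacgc
A CCAAT box (CCAAT, either strand) was found in 2 of the 8 windows, those of Pgd and Taldo1, against 33.8% of all windows. The E-box CACGTG, the CRE TGACGTCA and the ATF4 element TGATGNAAT were found in 0 of the 8, against 6.02%, 1.55% and 0.816% of all windows. The matches describe letters and not binding.

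Taldo1, which encodes the transaldolase of the non-oxidative branch, had the largest difference of the 7 genes between the hairpin groups. It stood at 145, 141 and 166 CPM in libraries 1 to 3 labelled shIRS2, against 99.97, 94.2 and 146 CPM in shControl libraries 1 to 3. The shControl libraries numbered 1 and 2 were low and the shControl library numbered 3 lay among the libraries labelled shIRS2, so the groups overlapped. Taldo1 averaged 150.5 ± 13.5 CPM in libraries labelled shIRS2 and 113 ± 28.5 CPM in shControl libraries (SD, n = 3 each). The fitted ratio was 1.33-fold, or 0.41 on the log2 scale (SE 0.16, 95% interval 0.05 to 0.76). The edgeR quasi-likelihood test gave an unadjusted p of 0.0290 and an adjusted p of 1.00. Under that test 0 of the 7 genes passed, where 0% of all genes tested did, and 262 genes had an unadjusted p under 0.05. Of the 7 genes 0 had groups that did not overlap, where in 3.26% of the genes tested all libraries labelled shIRS2 were above, and in 3.1% below, all shControl libraries.

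With the replicate number in the fit Taldo1 came close to the threshold or passed it, depending on the tool. The numbered pairs 1, 2 and 3 had log2 ratios of 0.53, 0.58 and 0.18 for Taldo1. It was the only member higher in all 3 pairs, where 15.5% of the genes tested were. In the blocked edgeR fit its log2 fold change was 0.43 (SE 0.08) with an adjusted p of 0.125, and its unadjusted p was number 6 in rank among 13472. That fit called 0 of the 7 members, against 0.00742% of the genes tested. DESeq2 with the block gave an adjusted p of 0.0367 for Taldo1 and called 1 of the 7 members, against 0.0154% of its genes. No label pairs the libraries by number, and same-numbered libraries deviated together clearly only for number 2 (r 0.576). The genes were chosen with these results known, so the p-values are descriptions.

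The pair numbered 3 carried the smaller ratio, and the call turned on which libraries were kept. Without the shIRS2 library numbered 3 the blocked edgeR fit gave Taldo1 an adjusted p of 5.28e-09 at a log2 fold change of 0.56, and without the shControl library numbered 3 the adjusted p was 6.78e-09 at 0.55. Those fits keep 1 residual degree of freedom, and a library without its partner adds nothing to the group difference. Leaving out any library numbered 1 or 2 gave blocked edgeR adjusted p-values from 0.174 to 0.532 for Taldo1. With DESeq2 and the block, leaving out any library numbered 1 or 2 ended the call (adjusted p 1.00), which stood at 0.00130 and 0.00135 without the shIRS2 or the shControl library numbered 3. Without the block the log2 fold change of Taldo1 ranged from 0.29, without the shControl library numbered 2, to 0.63, without the shControl library numbered 3.

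**Figure D2:**
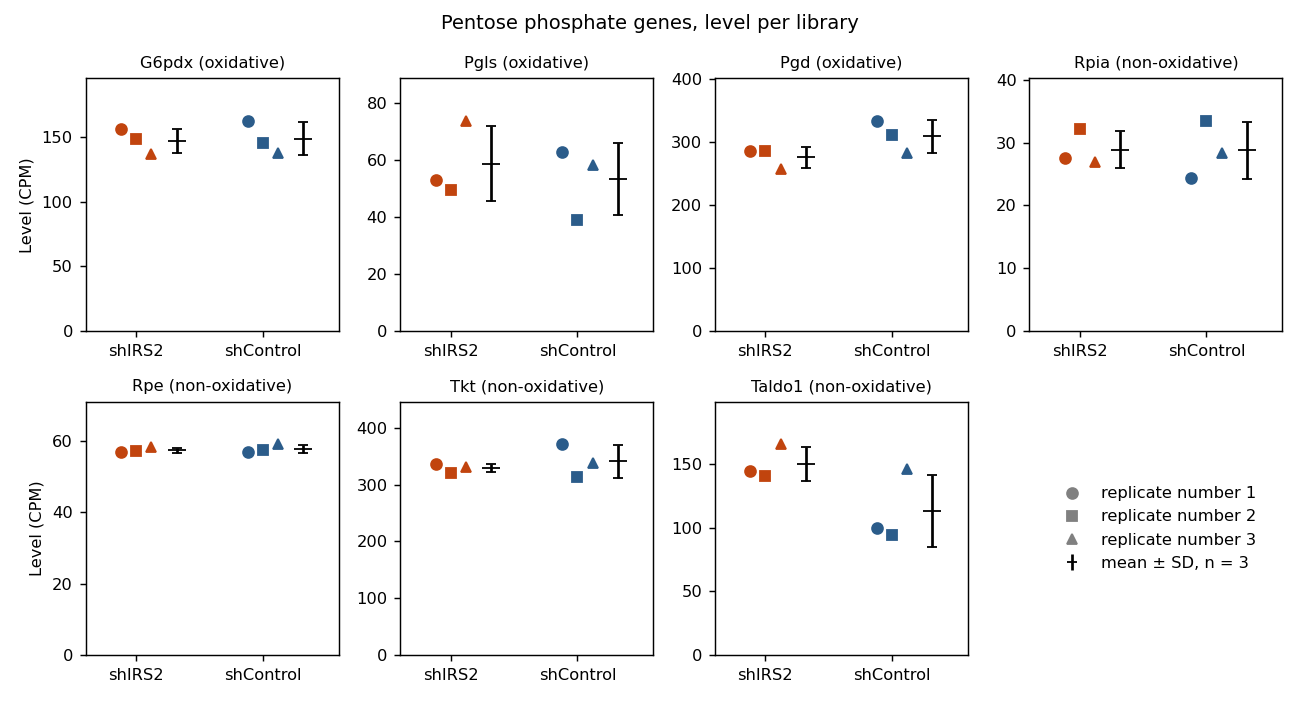
Level of each gene in CPM per library, with shIRS2 at the left and shControl at the right of each panel. Symbols give the replicate number and black bars the mean ± SD (n = 3). The Taldo1 panel shows 2 low shControl libraries, numbered 1 and 2, and the one numbered 3 at 146 CPM among the libraries labelled shIRS2.

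The other 3 non-oxidative genes lay close to equal in both groups. Tkt, the transketolase that moves carbon units between sugars, stood at 336, 320 and 332 CPM in libraries labelled shIRS2, against 371, 314 and 338 CPM in shControl libraries. Its log2 fold change was -0.05 (SE 0.09, 95% interval -0.24 to 0.14). Rpia, the isomerase that makes ribose 5-phosphate, stood at 27.5, 32.2 and 26.9 CPM in libraries labelled shIRS2, against 24.4, 33.5 and 28.4 CPM in shControl libraries. In both groups the library numbered 2 was the highest, and the group means differed by less than their spread (log2 fold change 0.0023, SE 0.14, 95% interval -0.31 to 0.31). Rpe, the epimerase that makes xylulose 5-phosphate, was the steadiest member, at 56.8, 57.2 and 58.2 CPM in libraries labelled shIRS2 against 56.8, 57.3 and 59.1 CPM in shControl libraries. Its highest library was 1.04 times its lowest, and its log2 fold change was -0.0082 (SE 0.09, 95% interval -0.20 to 0.18). The edgeR adjusted p was 1.00 for each of these genes.

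In the oxidative branch no gene passed the test either. Pgd, the second NADPH-making dehydrogenase, stood at 285, 286 and 256 CPM in libraries labelled shIRS2, against 334, 311 and 282 CPM in shControl libraries. The shControl library numbered 3 lay within the range of the libraries labelled shIRS2. Its log2 fold change was -0.16 (SE 0.09, 95% interval -0.37 to 0.04, adjusted p 1.00), and Pgd was the only member lower in all 3 pairs (-0.23, -0.12 and -0.14), where 15.1% of the genes tested were. In the blocked edgeR fit its adjusted p was 0.404 at the same log2 fold change (95% interval -0.28 to -0.04).

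G6pdx, whose enzyme catalyses the entry step and is the main point of control, stood at 156, 148 and 137 CPM in libraries labelled shIRS2, against 162, 145 and 138 CPM in shControl libraries. Values with the same number were close, and G6pdx had a fitted log2 ratio of -0.02 (SE 0.09, 95% interval -0.23 to 0.20). Pgls, the lactonase between the dehydrogenases, stood at 52.9, 49.4 and 73.7 CPM in libraries labelled shIRS2, against 62.7, 38.8 and 58.1 CPM in shControl libraries. The lowest library in both groups was the one numbered 2. The fit gave Pgls 0.14 on the log2 scale (SE 0.20, 95% interval -0.31 to 0.59), with log2 pair ratios of -0.25, 0.35 and 0.34.

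**Figure D3:**
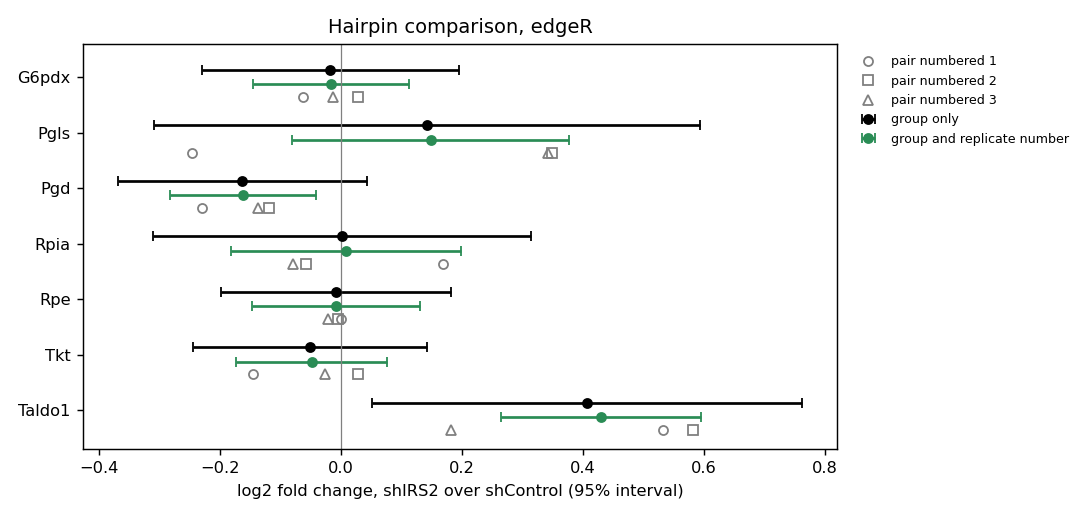
Log2 fold change of each gene, shIRS2 over shControl, from edgeR with the group only (black) and with group and replicate number (green), with 95% intervals, and the log2 ratio of each numbered pair (open symbols). Taldo1 is the only gene whose group-only interval, 0.05 to 0.76, lies on one side of 0, and its adjusted p was 1.00. With the replicate number in the fit, the intervals of Taldo1 (0.27 to 0.59) and Pgd (-0.28 to -0.04) both lie on one side of 0.

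The members were also compared between replicate numbers. The spread of log2 CPM over the 6 libraries was parted into group, number and remainder. The number has 2 degrees of freedom and the group 1, so the number takes the larger share more often even where neither has an effect. For G6pdx the number took 94.9% of the spread and the group 0.776%, and for Taldo1 the number took 40.4% and the group 51.0%. For Pgd the shares were 50.1% for the number and 45.8% for the group. Over all genes tested the median shares were 61.4% for the number and 8.97% for the group. The number took the larger share in 6 of the 7 members, and in 82.3% of the genes tested. Rpe, the steadiest member, had 91.3% for the number, so a large share can go with a small spread. The edgeR test across the 3 numbers, with the group in the fit, called 2 of the 7 members, Pgls (adjusted p 0.0195) and Taldo1 (0.00731), where it called 19.6% of the genes tested. Rpia (0.0750), Pgd (0.110), G6pdx (0.123), Tkt (0.284) and Rpe (0.895) had adjusted p-values above 0.05. No label says what the number marks, and a difference in culture, day or preparation was not tested.

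The members did not share 1 pattern over the numbers. The libraries numbered 2 had the lowest Pgls in each group, with a mean of 44.1 CPM against 57.8 CPM in the libraries numbered 1 and 65.9 CPM in those numbered 3. They had the highest Rpia, with a mean of 32.9 CPM against 26.0 and 27.6 CPM in those numbered 1 and 3. Both libraries numbered 2 lay below the other 4 for Pgls and Tkt, as in 20.1% of the genes tested, and above them for Rpia, as in 20% of them. Set against numbers 1 and 3 together, the log2 difference of number 2 was -0.49 (SE 0.11, edgeR adjusted p 0.00890) for Pgls, 0.30 (SE 0.09, 0.0319) for Rpia and -0.25 (SE 0.08, 0.0401) for Taldo1. Thus 1 member was called higher, where 11.6% of the genes tested were, and 2 were called lower, where 11.9% were. Tkt at -0.12, Pgd at 0.05, G6pdx at -0.01 and Rpe at -0.01 did not pass. Taldo1 instead stood out in the libraries numbered 3, at 166 CPM in the one labelled shIRS2 and 146 CPM in shControl, the highest of each group. G6pdx and Pgd had their lowest library in number 3 in both groups.

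These calls rested on few libraries and on the tool. For number 2 against numbers 1 and 3, DESeq2 gave adjusted p-values of 0.131 for Rpia and 0.0692 for Taldo1, and limma on log2(FPKM + 1) gave 0.0879 for Pgls, 0.0898 for Rpia and 0.156 for Taldo1. The edgeR fit with the number alone gave 0.554 for Taldo1. Without the shControl library numbered 2 the adjusted p for number 2 against numbers 1 and 3 was 0.150 for Pgls, 0.454 for Rpia and 0.639 for Taldo1. The Rpia call was also lost without the shIRS2 libraries numbered 2 (0.181) and 3 (0.0511) and without the shControl library numbered 1 (0.0591). The Taldo1 call was also lost without the shIRS2 libraries numbered 1 (0.0870) and 2 (0.0655) and without the shControl library numbered 3 (0.145). Tkt was called in that contrast without the shIRS2 library numbered 1 (log2 difference -0.15, edgeR adjusted p 0.0476). Across the 3 numbers, the Pgls call was lost without the shControl library numbered 2 (0.147) and the Taldo1 call without the shControl library numbered 3 (0.180). In that test Rpia was called without the shIRS2 library numbered 1 (0.0215) or 3 (0.0435) or the shControl library numbered 3 (0.0303), and Pgd without the shIRS2 library numbered 1 (0.0289).

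**Figure D4:**
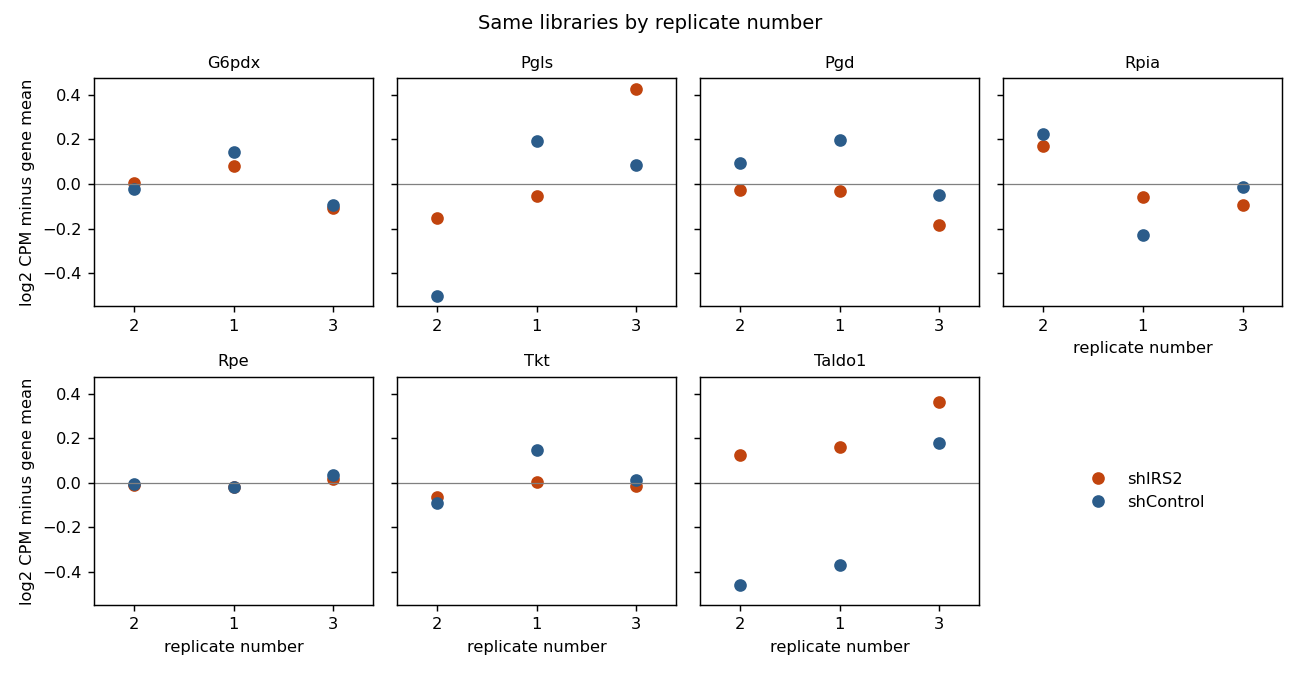
Log2 CPM of each gene minus its mean over the 6 libraries, by replicate number (number 2 at the left, then 1 and 3), with shIRS2 in red and shControl in blue. Pgls is lowest and Rpia highest at number 2 in both groups, and Rpe is flat.

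The balance of the branches was described as the summed FPKM of Rpia, Rpe, Tkt and Taldo1 over that of G6pdx, Pgls and Pgd. The ratio was 1.25, 1.26 and 1.40 in libraries labelled shIRS2, against 0.985, 1.05 and 1.32 in shControl libraries. The shControl library numbered 3 again lay within the range of the libraries labelled shIRS2, and the means were 1.30 ± 0.0859 and 1.12 ± 0.180 (SD, n = 3 each). Without Taldo1 the ratio was 0.635, 0.644 and 0.664 in libraries labelled shIRS2, against 0.605, 0.638 and 0.676 in shControl libraries. The difference between the group means was 0.183 with Taldo1 and 0.0079 without it. As the mean log2 FPKM of the non-oxidative genes minus that of the oxidative genes, the balance was -0.45, -0.36 and -0.45 in libraries labelled shIRS2, against -0.77, -0.41 and -0.40 in shControl libraries. On that measure the shControl libraries numbered 2 and 3 both lay within the range of the libraries labelled shIRS2. With levels per kilobase of the principal transcript the ratio was 1.05, 1.05 and 1.10 in libraries labelled shIRS2, against 0.819, 0.897 and 1.07 in shControl libraries. The summed oxidative level was 108, 105 and 103 FPKM in libraries labelled shIRS2 and 121, 105 and 104 FPKM in shControl libraries.

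**Figure D5:**
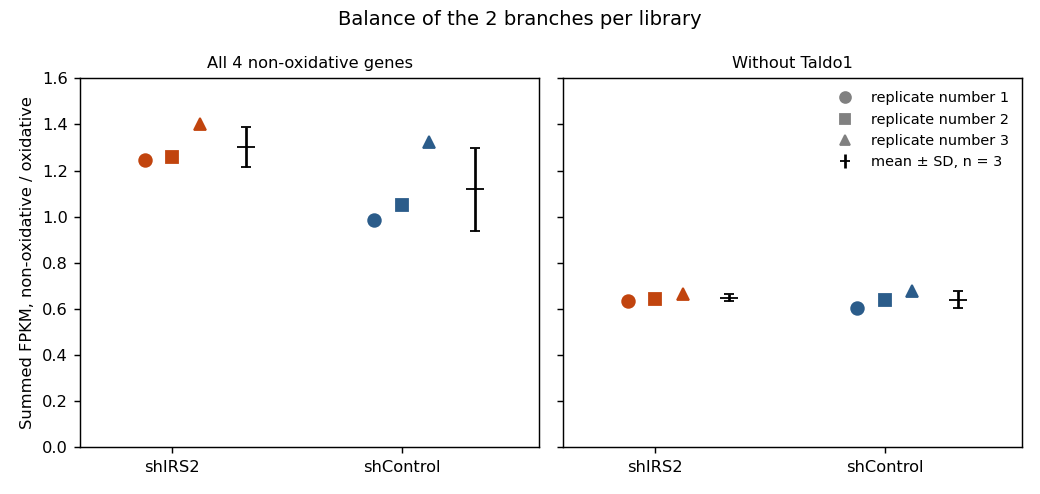
Summed FPKM of the non-oxidative genes divided by that of the oxidative genes in each library, with all 4 non-oxidative genes (left) and without Taldo1 (right). Bars are mean ± SD (n = 3). The shControl libraries numbered 1 and 2 are lowest on the left, at 0.985 and 1.05, and all 6 libraries lie between 0.605 and 0.676 on the right.

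Of the paralogs of these enzymes, G6pd2 and Tktl2 had 0 counts in all 6 libraries, and Tktl1, a transketolase-like gene, was low, averaging 0.757 CPM in libraries labelled shIRS2 and 0.788 CPM in shControl libraries. H6pd, whose enzyme runs the early oxidative steps inside the endoplasmic reticulum, was expressed, averaging 38.7 CPM in libraries labelled shIRS2 and 35.2 CPM in shControl libraries (log2 fold change 0.14, SE 0.12). Idnk, a gluconate kinase feeding the pathway, stood at 11.8, 10.6 and 10.9 CPM in libraries labelled shIRS2, against 15.2, 12.8 and 14.0 CPM in shControl libraries. Those groups did not overlap, with all 3 libraries labelled shIRS2 lower, as in 3.1% of the genes tested, and the edgeR adjusted p was 1.00 (log2 fold change -0.33, SE 0.14). Tigar, a phosphatase known to steer glucose into the pathway, was higher in the libraries numbered 2 (log2 difference 0.29, SE 0.09, edgeR adjusted p 0.0336). Shpk averaged 1.56 and 1.45 CPM, Glyctk 0.977 and 0.932 CPM and Rbks 3.73 and 4.30 CPM in libraries labelled shIRS2 and shControl libraries.

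Genes around the pathway differed between the numbers and none between the hairpins at an adjusted p of 0.05. In the hairpin comparison 0 genes passed in any of the 7 lists, and the median log2 fold change was 0.09 over 13 glycolysis genes that share intermediates with the pathway (11 positive) and -0.10 over 17 users of NADPH (4 positive), beside -0.0003 over all genes tested (49.9% positive). It was 0.04 over 13 other makers of NADPH (8 positive), -0.03 over 23 genes of ribose use and salvage (8 positive), -0.06 over 19 NRF2 targets (6 positive) and 0.02 over 16 regulators (11 positive). Me1, malic enzyme, which also makes NADPH and is an NRF2 target, stood at 104, 106 and 100.2 CPM in libraries labelled shIRS2, against 129, 122 and 116 CPM in shControl libraries. Its groups did not overlap (log2 fold change -0.24, SE 0.08), with all libraries labelled shIRS2 lower, as in 3.1% of the genes tested. Its edgeR adjusted p was 1.00, and 0.253 with the block.

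Number 2 was set against numbers 1 and 3 in the same lists. Of the 23 genes of ribose use and salvage 10 were higher and 1 lower, among them Prps1, which makes the ribose donor of nucleotides, at 135 and 137 CPM in the libraries numbered 2 against 101 to 106 CPM in the other 4 (log2 difference 0.40, SE 0.06, edgeR adjusted p 0.000594). Ppat, the first enzyme of purine synthesis, had a log2 difference of 0.55 (SE 0.06). Of the 13 glycolysis genes 0 were higher and 5 lower, among them Slc2a1, a glucose transporter, at -0.87 (SE 0.07), and Gpi1, glucose phosphate isomerase, at -0.33 (SE 0.06). Of the NRF2 targets 0 were higher and 4 lower, with Hmox1, heme oxygenase, at -0.62 (SE 0.08). Of the other makers of NADPH 2 were higher and 4 lower, of its users 4 and 2, and of the regulators 2 and 7, Myc being higher at 0.45 (SE 0.07) and Atf4 lower at -0.37 (SE 0.06). Every gene named here with its log2 difference passed the test at an adjusted p of 0.05. Over all genes tested, 11.6% were called higher and 11.9% lower.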

How the data were processed

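RNA was sequenced from cells labelled Glu-tag, as 3 libraries labelled sh-IRS2 and 3 labelled sh-control. The authors deposited a table of whole-number counts per gene and a table of FPKM values, and the labels' protocols describe poly(A)-selected, strand-specific paired-end libraries. Per the submitters' processing notes, reads were placed on mm10. No aligner or counter is named in the sources used here. The columns named NC and S were matched to sh-control and sh-IRS2 by name. FPKM as deposited uses the listed gene length and was used for levels between genes.

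Counts were tested with edgeR 4.0.16 in R 4.3.3 (TMM, filterByExpr by group, robust quasi-likelihood test, Benjamini-Hochberg over 13472 genes, threshold 0.05), with the group alone for the hairpin comparison and with group and number for the numbers. DESeq2 1.42.0 and limma 3.58.1 were alternatives. Library totals were 14991019 to 19790073 counts, and the limit for a count of 0 (3 counts over all libraries) covers counting error only. The series design calls the libraries biological triplicates, while every description says replicate 1. Where libraries are not separate cultures, p-values measure only the spread between these samples. Same-numbered libraries had an r of 0.167, 0.576 and 0.260 for numbers 1, 2 and 3 in their deviations from the group mean. They deviated together clearly only for number 2. The pairing by number was taken from these data, not from a label. The highest r with a library of another number was 0.199 for number 1, above its own, -0.297 for number 2 and 0.189 for number 3. All members, Irs2 and all genes of the paralog list are named. In each other list, the genes named came from the 2 with the lowest edgeR p between hairpins and the 2 with the lowest across numbers. The 3 genes most like Taldo1, G6pdx and Tkt are named by Pearson r. The members, lists and contrasts were chosen with earlier results of these data known. The group-only edgeR fit and the contrast of number 2 with numbers 1 and 3 were tested on simulated counts. The simulation for the group held no number effect. The blocked hairpin fit, the test across numbers, DESeq2 and limma were not tested in this way.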

Additional observations from a re-analysis of the deposited data

How the results depend on the processing

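No member was called between the hairpin groups by the group-only fits of edgeR (TMM, DESeq2 size factors, upper quartile, no filter), DESeq2, limma-voom or limma on log2(FPKM + 1) and log2(FPKM + 0.1), or with any 1 library or both numbered 2 left out. With the replicate block edgeR called 1 gene and no member, and DESeq2 called 4 genes and 1 member, Taldo1; leaving out 1 library from the blocked fits gave 0 to 1 members. Without a filter edgeR called 6 genes. Across the numbers, 2638 genes and 2 members were called, against 1584 genes with DESeq2, 345 genes and 0 members with limma on log2(FPKM + 1), 1 member with the number alone (no replicate block for group), and 798 to 3774 genes and 1 to 4 members with 1 library left out. The lowest count, 798, came without the shControl library numbered 2, and 973 genes were called without the shIRS2 library numbered 2. For number 2 against numbers 1 and 3, 3169 genes and 3 members were called, against 1920 genes and 1 member with DESeq2, 1449 genes and 0 members with limma, 2 members with the number alone, and 808 to 3687 genes and 0 to 3 members with 1 library left out. The cause was not tested.

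The signs of small differences turned. Rpia was at -0.0021 (log2) with upper-quartile scaling. With 1 library left out of the group-only fit, hairpin log2 fold changes ranged from -0.0707 to 0.0497 for G6pdx, -0.0550 to 0.274 for Pgls, -0.104 to 0.127 for Rpia, -0.0225 to 0.0053 for Rpe and -0.106 to 0.0115 for Tkt, and number 2 differed by -0.0426 to 0.0227 for G6pdx. With the replicate block and without the shIRS2 or the shControl library numbered 1, G6pdx was at 0.0053 and 0.0052 in edgeR and 0.0060 and 0.0066 in DESeq2, and Rpia at -0.0692 in both edgeR fits and -0.0688 and -0.0682 in DESeq2. Tkt was at 0.00029 in DESeq2 with the block and without the shControl library numbered 1. Taldo1 and Pgd kept their sign in all hairpin fits run. The block changed no other member's call. With 3 libraries a group, a missed threshold does not show that levels were equal.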

Other observations

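Over the 6 libraries and 8626 genes of at least 10 CPM, the genes whose log2 CPM followed Taldo1 most closely were Colgalt1 (Pearson r 0.996), Idh2 (0.994) and Inf2 (0.993). For G6pdx they were Ranbp6 (0.995), Bdkrb2 (0.974) and Cenpk (0.971), and for Tkt they were Tepsin (0.998), Thap4 (0.986) and Ftl1-ps1 (0.978). With 6 libraries that share their numbering, 204 genes had an r above 0.9 with Taldo1, 40 with G6pdx and 58 with Tkt, so these values are descriptions. Idh2, the mitochondrial NADPH-making isocitrate dehydrogenase, stood at 94.9, 94.5 and 100.1 CPM in libraries labelled shIRS2, against 83.5, 83.1 and 94.2 CPM in shControl libraries. As for Taldo1, the shControl libraries numbered 1 and 2 were low, and that numbered 3 was close to the lower libraries labelled shIRS2. Idh2 is described here for its high r with Taldo1, so a shared pattern follows from that choice. Unlike those of Taldo1, the Idh2 groups narrowly did not overlap. All 3 libraries labelled shIRS2 were higher, as in 3.26% of the genes tested. The difference in Idh2 did not pass the edgeR test (log2 fold change 0.15, SE 0.09, adjusted p 1.00).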
